A study of Mus musculus with 12 samples.

Results

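The 35 genes described here make sterols, make and desaturate fatty acids, or sense and export sterols, and they were measured in RAW264.7 mouse macrophages in which the splicing factor SF3a1 was knocked down by siRNA. They were chosen by symbol from the gene count table, which holds 38215 genes, and all 35 were present in it. By role, 16 are cholesterol synthesis enzymes, 6 act in sterol sensing, SREBP processing or sterol transfer, 7 act in fatty acid synthesis and desaturation, 5 are LXR receptors, efflux transporters or the ubiquitin ligase Mylip, and 1, Ch25h, makes an oxysterol. RAW264.7 is a single established macrophage line, and every culture was nucleofected with a pool of siRNAs. Cultures with SF3a1 siRNA and cultures with control siRNA, a non-targeting pool, were each left without LPS or given it, which makes 4 groups, each treated in triplicate. Untreated below means control siRNA and no LPS. LPS, the bacterial cell wall component sensed by TLR4, was given at 20 ng/ml for 4 hours, starting 24 hours after the siRNA.

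Cells make cholesterol from acetyl-CoA through the mevalonate pathway, which ends in farnesyl diphosphate, and then through squalene and a series of sterol intermediates. When sterols are scarce, the escort protein Scap brings the transcription factors Srebf1 and Srebf2 to the Golgi for cleavage, and the Insig proteins hold them back when sterols are plentiful. Oxysterols, which Ch25h makes in macrophages exposed to LPS, bind the LXR receptors Nr1h2 and Nr1h3, which turn on the efflux transporters Abca1 and Abcg1 and the ubiquitin ligase Mylip. Macrophages use these pathways to handle lipid taken up from other cells and to build membranes during activation.

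Polyadenylated RNA was sequenced, and the values are reads counted per gene. Depth ran from 20659511 to 40840082 reads on genes with control siRNA and no LPS, and from 13021502 to 41091887 with control siRNA and LPS. With SF3a1 siRNA it ran from 12746019 to 27789833 without LPS and from 17174058 to 36506558 with LPS. Replicate 1 was the deepest library of every group and was sequenced in 2 runs. Levels are given as CPM, the reads of a gene relative to depth after TMM scaling of the library totals, always in the order of replicates 1, 2 and 3. Fold changes are log2 values from edgeR's quasi-likelihood fit over all 12 libraries, with the standard error (SE) where a sentence gives one. A gene is called changed where its p, adjusted by Benjamini and Hochberg's method over the 14983 genes with enough reads to test, is at most 0.1, and all 35 members had enough reads. The p-values measure the spread between these cultures. Gene positions are those of the mm10 annotation. In a mixture of cells, fewer cells of a type and less RNA per cell cannot be told apart.

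The labelled cell type was checked against its markers. Of 8 macrophage markers, Adgre1, Csf1r, Cd68, Lyz2, Itgam, Fcgr1 and Spi1 were at 37.6 CPM or more in every library, and Mertk was at 0.0852 to 2.60 CPM. The most abundant was Lyz2, lysozyme, at 4979 to 9895 CPM, and the summed level of the 8 markers lay between 9327 and 14347 CPM. Markers of other cells were at or near 0. The highest single values were 0.71 CPM for the B cell marker Pax5, 0.0963 CPM for the T cell marker Cd3d, 2.37 CPM for the fibroblast marker Pdgfrb and 0.159 CPM for the hepatocyte marker Cyp2e1, and Cd8a, Trac, Alb and Serpina1a had no reads.

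Sf3a1, the targeted gene, encodes a subunit of the SF3a complex of the U2 snRNP. Without LPS it was at 173, 216 and 185 CPM with control siRNA and at 27.1, 27.5 and 32.1 CPM with SF3a1 siRNA. With LPS the levels were 150, 194 and 157 CPM with control siRNA and 30.3, 26.7 and 45.0 CPM with SF3a1 siRNA. Every SF3a1 siRNA library was below every control library, at 15.1% of the control mean without LPS (log2 fold change -2.73, SE 0.204, edgeR adjusted p = 1.14e-05) and 20.3% with LPS (log2 fold change -2.30, SE 0.200, edgeR adjusted p = 1.47e-05). Reads that fell on no annotated gene also moved with SF3a1 siRNA without LPS: they were 27.2, 21.6 and 20.8% of the reads on 1 gene, on none or on several, against 18.2, 19.6 and 17.8% with control siRNA, and the groups did not overlap. With LPS they were 19.9, 18.2 and 21.4% with SF3a1 siRNA and 19.8, 19.3 and 17.8% with control siRNA, and the groups overlapped. Their part in the changes of the members was not tested.

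LPS with control siRNA lowered 9 members and raised 2, so that 31.4% of the 35 were called, near the 32.1% of all tested genes (13.8% higher, 18.3% lower). The 9 that fell were the desaturases Fads1, Fads2, Scd1 and Scd2, the elongase Elovl6, the synthesis enzymes Acat2 and Dhcr7, the sterol carrier Stard4 and the ligase Mylip, and the 2 that rose were Abca1 and Ch25h. LPS with SF3a1 siRNA lowered Fads1, Fads2 and Mylip and raised Abca1 and Ch25h, against 10.7% of all genes (6.6% higher, 4.06% lower). SF3a1 siRNA without LPS lowered 9 members, Acat2, Mvk, Pmvk, Idi1, Fdps, Scd1, Fads1, Fads2 and Nr1h3, against 33.8% of all genes (13.7% higher, 20.1% lower). No member rose in that comparison by edgeR, and none had a higher level at an unadjusted p below 0.05 or was called higher by DESeq2 or limma-voom. SF3a1 siRNA with LPS lowered 7, Mvk, Pmvk, Fdps, Fads1, Fads2, Nr1h3 and Abca1, and raised Msmo1 and Elovl6, against 38.8% of all genes (18.4% higher, 20.4% lower). The difference between the SF3a1 effects with and without LPS, the interaction, was called for Elovl6 alone, against 3.47% of all genes (1.54% higher, 1.94% lower). Groups that did not overlap were common among all tested genes. With LPS 17.2% of genes were so higher and 23% lower under control siRNA, and 13.3% and 11.5% under SF3a1 siRNA. With SF3a1 siRNA these shares were 20.2% higher and 25.4% lower without LPS, and 18% and 21.1% with LPS.

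The median log2 change of the 35 members was -0.17 for LPS with control siRNA, against -0.02 over all tested genes. It was 0.01 for LPS with SF3a1 siRNA (0.01 over all genes), -0.47 for SF3a1 siRNA without LPS (-0.02) and -0.05 for SF3a1 siRNA with LPS (-0.04). Samples with the same replicate number deviated together, so counts are also given from a fit with the replicate number as a block where they moved by more than 1.5 times. With the block, LPS with SF3a1 siRNA was called for 10 members (5 higher, 5 lower, against 20.8% of all genes, 11.3% higher and 9.48% lower) and SF3a1 siRNA without LPS for 19 (2 higher, 17 lower, against 47.1% of all genes, 20.7% higher and 26.3% lower). SF3a1 siRNA with LPS was then called for 16 (7 higher, 9 lower, against 50.9% of all genes, 24.6% higher and 26.3% lower) and the interaction for 8 (7 higher, 1 lower, against 11.7% of all genes, 6.54% higher and 5.18% lower). Leaving out 1 library moved some counts as much: SF3a1 siRNA without LPS was called for 14 members without replicate 1 of control siRNA with LPS (36.9% of all genes in that fit), and SF3a1 siRNA with LPS for 5 without replicate 3 of its SF3a1 siRNA group (31.7% of all genes). LPS with SF3a1 siRNA was called for 3 and 2 members without replicate 1 and 2 of SF3a1 siRNA without LPS (6.88% and 6.92% of all genes) and for 3 without replicate 1 of SF3a1 siRNA with LPS (9.88% of all genes).

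**Figure D1:**
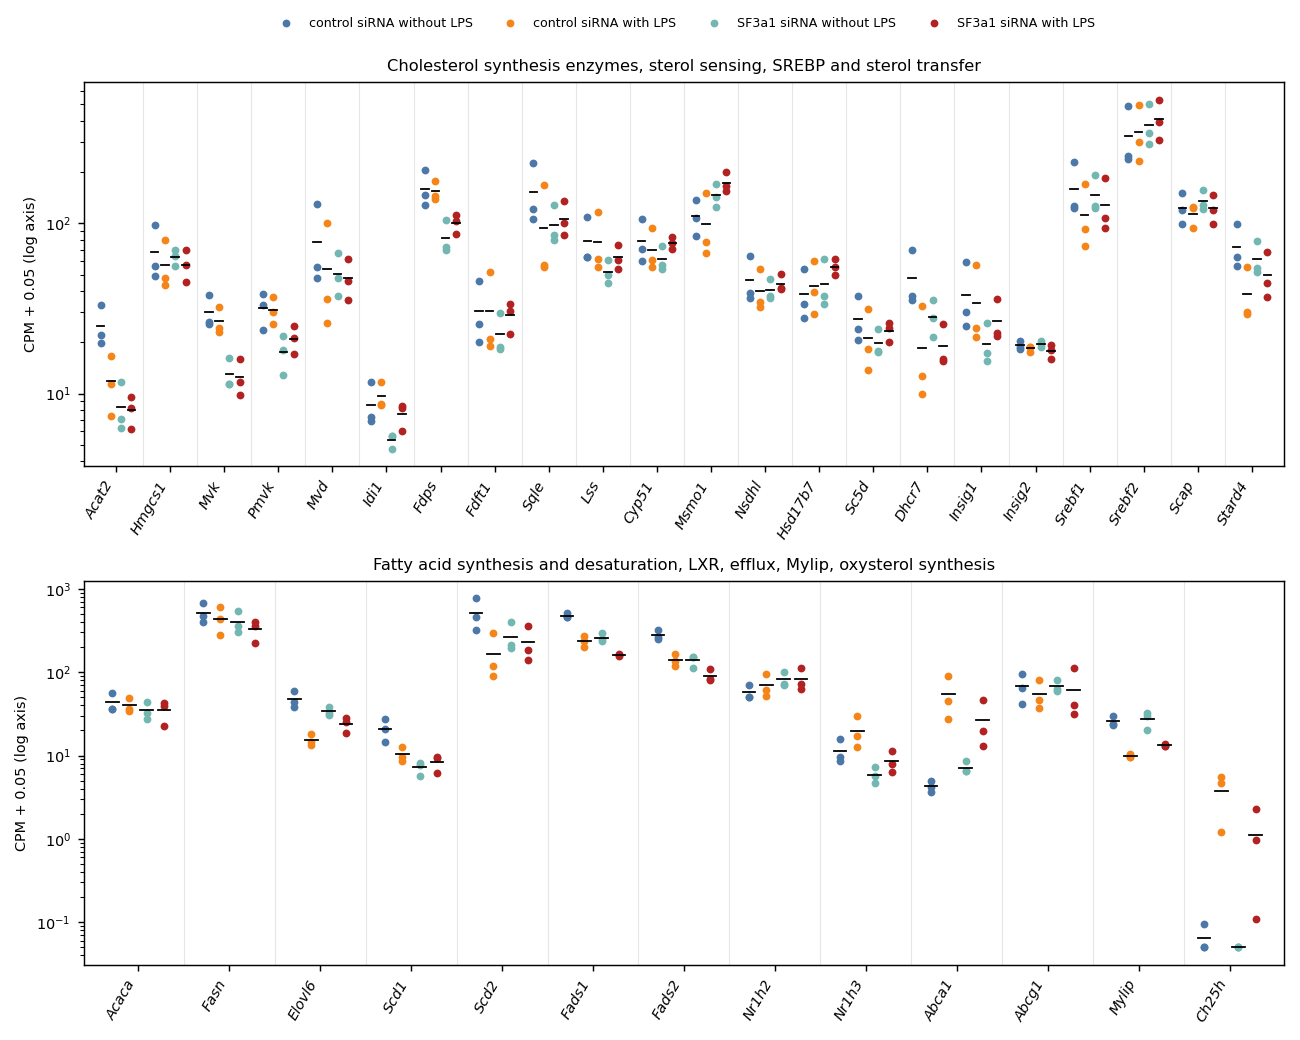
CPM of the 35 genes in each of the 12 libraries on a log axis, with 0.05 added so that libraries at 0 can be drawn; dots are libraries, coloured by group, and bars are means of 3. Fads1 sits highest with control siRNA and no LPS and lowest with both treatments, and Ch25h is near 0 in both groups without LPS.

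**Figure D2:**
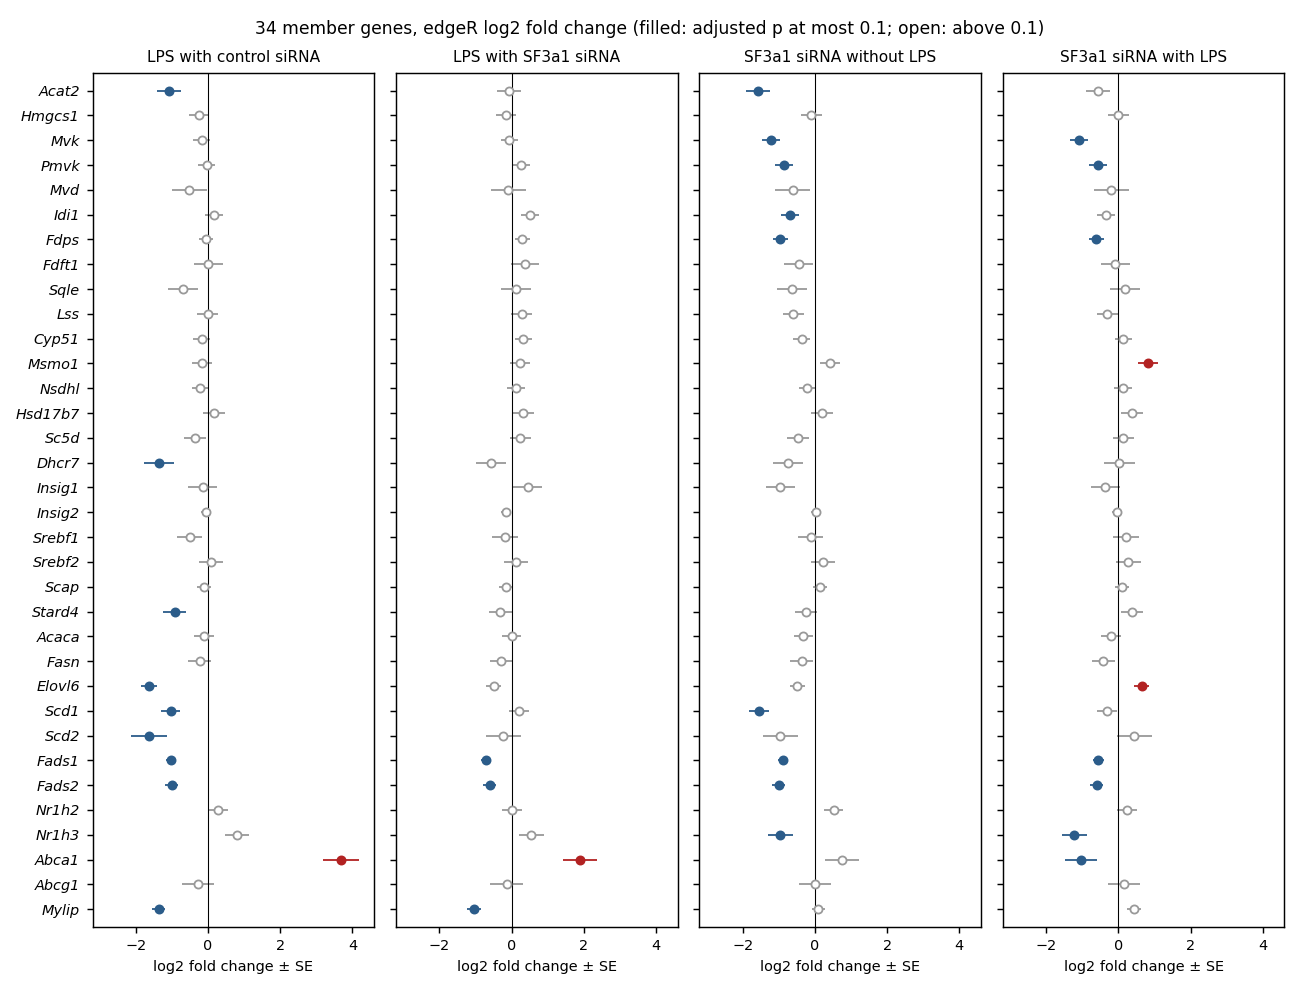
log2 fold change and SE of 34 genes in each comparison from edgeR's fit; filled points are called at an adjusted p of at most 0.1 (red higher, blue lower) and open points are not. Ch25h is left out because its reference groups held 1 and 0 reads. The mevalonate enzymes Mvk, Pmvk and Fdps and the desaturases Fads1 and Fads2 are filled and to the left in both SF3a1 panels.

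Levels between genes are compared per kilobase of exon. With control siRNA and no LPS the members spanned from 0.0107 CPM per kb for Ch25h and 0.408 for Abca1 to 95.0 for Scd2 and 99.3 for Fads1. The desaturase Fads2 followed at 84.5 CPM per kb, then the fatty acid synthase Fasn at 47.2 and the SREBP-2 gene Srebf2 at 45.2. Among the cholesterol synthesis enzymes Mvd (41.9 CPM per kb) and Fdps (38.1) were highest and Idi1 (2.45) was lowest. Acaca, which makes malonyl-CoA for Fasn, was at 2.54 CPM per kb.

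SF3a1 siRNA without LPS lowered 5 of the 16 cholesterol synthesis enzymes and raised none by edgeR. The 5 were 31.3% of the 16, where 20.1% of all genes were lower and 33.8% were called in either direction. None of the 16 was higher at an unadjusted p below 0.05 or called higher by DESeq2 or limma-voom. Their median log2 change was -0.61, against -0.02 over all genes. These 5 act between acetyl-CoA and farnesyl diphosphate, as do Hmgcs1 and Mvd, which were not called in that fit. With LPS, SF3a1 siRNA lowered 3 of the 16, Mvk, Pmvk and Fdps, and raised Msmo1 (median -0.04), so that 25% were called against 38.8% of all genes (37.5% against 50.9% with the replicate block). With the replicate block SF3a1 siRNA without LPS was called for 11 of the 16, 1 higher and 10 lower (68.8%, against 47.1% of all genes, 26.3% lower). Those lower with the block include Sqle, Lss, Sc5d and Dhcr7, which act after farnesyl diphosphate. LPS itself lowered Acat2 and Dhcr7 with control siRNA (12.5% of the 16, against 32.1% of all genes, and 25% against 43.9% with the block). Without the block, edgeR called 10.7% of all genes for LPS with SF3a1 siRNA. LPS changed none of the 16 there by edgeR, at an unadjusted p below 0.05, or by DESeq2 or limma-voom. With the block it raised Idi1 and lowered Dhcr7 there, where 20.8% of all genes were called.

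Acat2, which joins acetyl-CoA units at the head of the pathway, was at 33.1, 22.0 and 19.8 CPM with control siRNA and no LPS. It was at 16.7, 11.3 and 7.35 CPM with control siRNA and LPS, at 11.6, 6.24 and 6.99 CPM with SF3a1 siRNA alone and at 9.54, 8.16 and 6.11 CPM with both. The untreated libraries lay above all others. LPS with control siRNA lowered Acat2 to 47.2% of the mean (log2 fold change -1.08, SE 0.329, edgeR adjusted p = 0.028), a call lost without replicate 1 of control siRNA without LPS (log2 -0.79, edgeR adjusted p = 0.133). SF3a1 siRNA without LPS lowered it to 33.2% (log2 fold change -1.58, SE 0.335, edgeR adjusted p = 0.00393). With LPS the SF3a1 effect was -0.57 on the log2 scale with overlapping groups (edgeR adjusted p = 0.221, and 0.0245 with the replicate block).

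Mvk (ENSMUSG00000041939, chr5:114444269-114460591, forward strand), mevalonate kinase, was at 38.1, 26.4 and 25.6 CPM with control siRNA and no LPS and at 32.3, 23.1 and 24.4 CPM with control siRNA and LPS. After SF3a1 siRNA Mvk was at 16.2, 11.3 and 11.3 CPM without LPS and at 15.9, 11.6 and 9.77 CPM with LPS. All 6 SF3a1 siRNA libraries lay below all 6 control libraries. The log2 fold change of SF3a1 siRNA was -1.21 without LPS (SE 0.243, edgeR adjusted p = 0.00291) and -1.09 with LPS (SE 0.243, edgeR adjusted p = 0.00456), and both calls held with each library left out in turn. Both kinases of the pathway were lower: Pmvk, phosphomevalonate kinase, was at 38.6, 23.5 and 33.3 CPM with control siRNA and at 21.8, 12.8 and 18.0 CPM with SF3a1 siRNA, without LPS. With LPS Pmvk was at 37.0, 25.6 and 30.2 CPM with control siRNA and at 24.8, 21.3 and 16.9 CPM with SF3a1 siRNA. Its log2 change was -0.86 without LPS (SE 0.244, edgeR adjusted p = 0.0205) and -0.56 with LPS (SE 0.243, edgeR adjusted p = 0.0997). The Pmvk call without LPS was lost without replicate 1 of control siRNA without LPS (log2 -0.59, edgeR adjusted p = 0.128), and the call with LPS was lost in 8 of 12 leave-one-out fits (highest edgeR adjusted p = 0.291).

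Idi1, which isomerises isopentenyl diphosphate, was at 11.6, 7.24 and 6.86 CPM with control siRNA and at 5.62, 5.57 and 4.69 CPM with SF3a1 siRNA, without LPS. The groups did not overlap, and the log2 change was -0.70 (SE 0.250, edgeR adjusted p = 0.0575). The call was lost without replicate 1 of the control group (log2 -0.31, edgeR adjusted p = 0.396) and without replicate 2 or 3 of the SF3a1 group (edgeR adjusted p = 0.117 and 0.174). With LPS Idi1 was at 11.7, 8.51 and 8.64 CPM with control siRNA and at 8.39, 8.22 and 6.02 CPM with SF3a1 siRNA, and was not called. Fdps, farnesyl diphosphate synthase, was at 206, 128 and 147 CPM with control siRNA and at 104, 72.2 and 69.8 CPM with SF3a1 siRNA, without LPS (log2 fold change -0.96, SE 0.209, edgeR adjusted p = 0.00457). With LPS it was at 146, 139 and 178 CPM with control siRNA and at 112, 104 and 86.7 CPM with SF3a1 siRNA, a log2 change of -0.61 (SE 0.208, edgeR adjusted p = 0.0413). The Fdps call with LPS was lost without replicate 3 of either LPS group (log2 -0.50 and -0.51, edgeR adjusted p = 0.138 and 0.144).

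Of the enzymes after farnesyl diphosphate, Msmo1 was the one called with SF3a1 siRNA in the fit without the block. Msmo1, the sterol C4-methyl oxidase, was at 151, 66.8 and 77.8 CPM with control siRNA and LPS and at 199, 167 and 155 CPM with SF3a1 siRNA and LPS. The groups did not overlap (log2 fold change 0.81, SE 0.279, edgeR adjusted p = 0.0422), but the call was lost without replicate 2 or 3 of the control group or replicate 1 of the SF3a1 group (log2 0.60, 0.67 and 0.71, edgeR adjusted p = 0.153, 0.141 and 0.117). Without LPS Msmo1 was at 138, 84.5 and 108 CPM with control siRNA and at 171, 125 and 143 CPM with SF3a1 siRNA (log2 0.41, edgeR adjusted p = 0.315, and 0.0451 with the replicate block). Dhcr7, the reductase of the last step to cholesterol, was at 70.2, 37.4 and 35.4 CPM with control siRNA and at 32.8, 12.6 and 9.93 CPM with control siRNA and LPS. LPS lowered it to 38.7% of the mean (log2 fold change -1.36, SE 0.422, edgeR adjusted p = 0.0304), a call lost without replicate 1 of the untreated group (log2 -0.94, edgeR adjusted p = 0.148) or without replicate 2 or 3 of the LPS group (edgeR adjusted p = 0.111 and 0.103). With SF3a1 siRNA Dhcr7 was at 35.6, 27.8 and 21.4 CPM without LPS and at 25.6, 15.9 and 15.4 CPM with LPS.

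Hmgcs1, Mvd, Fdft1, Sqle, Lss, Cyp51, Nsdhl, Hsd17b7 and Sc5d, the other synthesis enzymes, were called in no comparison of the fit without the block. Hmgcs1, the HMG-CoA synthase, was at 98.4, 49.0 and 56.4 CPM with control siRNA and at 69.6, 56.4 and 64.1 CPM with SF3a1 siRNA, without LPS, and the groups overlapped. Sqle, squalene epoxidase, was at 227, 106 and 122 CPM untreated and at 168, 56.7 and 55.3 CPM with control siRNA and LPS, a log2 change of -0.70 whose edgeR adjusted p was 0.265, and 0.00495 with the replicate block. In SF3a1 siRNA without LPS the block also called Mvd, Sqle, Lss, Sc5d and Dhcr7 lower and Msmo1 higher, at edgeR adjusted p between 0.00846 and 0.0995. With LPS it called Acat2 lower and Hsd17b7 higher (edgeR adjusted p = 0.0448). With the block, LPS lowered Mvd with control siRNA, and with SF3a1 siRNA it raised Idi1 (edgeR adjusted p = 0.088) and lowered Dhcr7 (edgeR adjusted p = 0.0526). Fdft1 and Cyp51 overlap genes on the opposite strand (Ctsb, with 778627 reads in all, and Akap9, with 16120), and the sources used here do not say whether reads were counted by strand, so their counts are less certain. The same holds for Srebf1, which overlaps Rai1 (17862 reads).

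Of the 6 sterol sensing genes, edgeR called none with SF3a1 siRNA, against 33.8% of all genes without LPS and 38.8% with LPS. Without LPS, 1 of the 6, Insig1, had a lower level at an unadjusted p below 0.05, and DESeq2 called 1 lower and limma-voom none. With LPS there was none by any of these. Insig1, which retains Scap in the endoplasmic reticulum, was at 59.2, 25.1 and 30.02 CPM with control siRNA and at 25.9, 15.6 and 17.3 CPM with SF3a1 siRNA, without LPS (log2 -0.96, edgeR adjusted p = 0.105, and 0.000751 with the replicate block). Insig2, its paralog, was between 15.9 and 20.4 CPM in all 12 libraries. The SREBP genes were set apart by replicate more than by group: Srebf2 was at 488, 248 and 238 CPM untreated and at 535, 309 and 396 CPM with both treatments, and Srebf1 was at 228, 124 and 127 CPM untreated and at 185, 93.9 and 108 CPM with both. Scap lay between 93.8 and 157 CPM.

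Stard4, a cytosolic sterol carrier, was the one gene of these 6 called, for LPS with control siRNA, where 32.1% of all genes were called. It was at 99.8, 56.1 and 63.2 CPM without LPS and at 55.4, 29.5 and 30.2 CPM with LPS. Each LPS library was below each untreated library (log2 fold change -0.92, SE 0.312, edgeR adjusted p = 0.0448). The call was lost without replicate 1 of the untreated group (log2 -0.61, edgeR adjusted p = 0.21) or without replicate 2 or 3 of the LPS group (edgeR adjusted p = 0.152 and 0.145). With SF3a1 siRNA Stard4 was at 78.6, 52.0 and 54.8 CPM without LPS and at 67.9, 37.1 and 44.5 CPM with LPS (log2 change with LPS -0.31, edgeR adjusted p = 0.701, and 0.067 with the replicate block). With the block the SF3a1 effect with LPS was called higher for Stard4 (edgeR adjusted p = 0.014), LPS with control siRNA lowered Srebf1 (edgeR adjusted p = 0.004) and LPS with SF3a1 siRNA raised Insig1 (edgeR adjusted p = 0.0888). In these comparisons the fit with the block called 50.9%, 43.9% and 20.8% of all genes, in that order.

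The fatty acid genes that were called fell with each treatment given alone. LPS with control siRNA lowered 5 of the 7 (median log2 change -1.03), where 18.3% of all genes were lower. SF3a1 siRNA without LPS lowered 3 of the 7 (median -0.88), where 20.1% of all genes were lower (5 of the 7 with the replicate block, where 26.3% were lower), and none rose in either by edgeR, at an unadjusted p below 0.05, or by DESeq2 or limma-voom. Fads1 (ENSMUSG00000010663, chr19:10182888-10196877, forward strand) and Fads2 (ENSMUSG00000024665, chr19:10062765-10101746, reverse strand), the front-end desaturases that make long polyunsaturated fatty acids, fell in all 4 comparisons of 2 groups. Fads1 was at 518, 460 and 457 CPM untreated, at 198, 269 and 236 CPM with control siRNA and LPS, at 295, 250 and 234 CPM with SF3a1 siRNA alone and at 154, 159 and 166 CPM with both. The untreated libraries were the highest and those with both treatments the lowest, with no overlap of either with the other groups. Its log2 change with LPS was -1.03 (SE 0.144, edgeR adjusted p = 0.000179) with control siRNA and -0.70 (SE 0.144, edgeR adjusted p = 0.00865) with SF3a1 siRNA. With SF3a1 siRNA it was -0.88 without LPS (SE 0.144, edgeR adjusted p = 0.000817) and -0.55 with LPS (SE 0.144, edgeR adjusted p = 0.0112), and all 4 calls held with each library left out in turn.

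Fads2 was at 323, 262 and 251 CPM untreated, at 117, 163 and 134 CPM with control siRNA and LPS, at 150, 152 and 113 CPM with SF3a1 siRNA alone and at 83.7, 109 and 81.0 CPM with both. Its untreated libraries were above all others. Its log2 change was -1.01 for LPS with control siRNA (SE 0.183, edgeR adjusted p = 0.00117) and -1.01 for SF3a1 siRNA without LPS (SE 0.183, edgeR adjusted p = 0.00155). The change was -0.61 for LPS with SF3a1 siRNA (edgeR adjusted p = 0.066) and -0.60 for SF3a1 siRNA with LPS (edgeR adjusted p = 0.0245). The former call was lost in 4 of 12 leave-one-out fits (highest edgeR adjusted p = 0.212, without replicate 2 of SF3a1 siRNA without LPS), and the latter without replicate 2 of control siRNA with LPS (log2 -0.46, edgeR adjusted p = 0.109).

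Scd1 and Scd2, stearoyl-CoA desaturases that make oleic acid, are close paralogs, and since only uniquely mapping reads were counted their counts are less certain. Scd1 was at 27.7, 14.5 and 20.7 CPM untreated and at 8.61, 9.54 and 12.6 CPM with control siRNA and LPS (log2 fold change -1.04, SE 0.270, edgeR adjusted p = 0.012). In SF3a1 siRNA cultures it was at 5.69, 8.14 and 7.74 CPM without LPS, 34.2% of the control mean (log2 fold change -1.55, SE 0.276, edgeR adjusted p = 0.00133), and at 6.12, 9.43 and 9.24 CPM with LPS. All untreated libraries were above the libraries of the other 3 groups. Scd2 was far more abundant, at 776, 317 and 465 CPM untreated and at 292, 90.1 and 118 CPM with control siRNA and LPS, and fell to 32.1% of the mean with LPS (log2 fold change -1.64, SE 0.493, edgeR adjusted p = 0.0262). That call was lost without replicate 1 of the untreated group (log2 -1.20, edgeR adjusted p = 0.116). With SF3a1 siRNA Scd2 was at 395, 210 and 195 CPM without LPS and at 356, 141 and 186 CPM with LPS, with groups that overlapped their controls (edgeR adjusted p = 0.17 and 0.539, and 0.000287 and 0.0123 with the replicate block, lower without LPS and higher with it).

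Elovl6, an elongase that extends saturated fatty acids made by Fasn, lay at chr3:129532355-129638495 (forward strand, ENSMUSG00000041220). It was at 60.1, 38.3 and 44.0 CPM untreated and at 13.3, 18.3 and 14.6 CPM with control siRNA and LPS. After SF3a1 siRNA Elovl6 was at 37.8, 32.7 and 30.9 CPM without LPS and at 25.3, 18.6 and 28.2 CPM with LPS. LPS lowered it to 32.4% of the mean with control siRNA (log2 fold change -1.63, SE 0.214, edgeR adjusted p = 0.000108) and with SF3a1 siRNA it was not called (log2 -0.49, edgeR adjusted p = 0.212). With LPS every SF3a1 library was above every control library (log2 fold change 0.65, SE 0.211, edgeR adjusted p = 0.0344; log2 0.52 and edgeR adjusted p = 0.127 without replicate 3 of that SF3a1 group). Without LPS every SF3a1 library was below every control library (log2 -0.49, edgeR adjusted p = 0.103, and 0.06 with the replicate block), as was true of 25.4% of all tested genes. Fasn and Acaca, the enzymes that build palmitate, were called in no comparison: Fasn was at 674, 473 and 403 CPM untreated and at 402, 226 and 363 CPM with both treatments, and Acaca was between 22.5 and 56.9 CPM in all libraries.

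**Figure D3:**
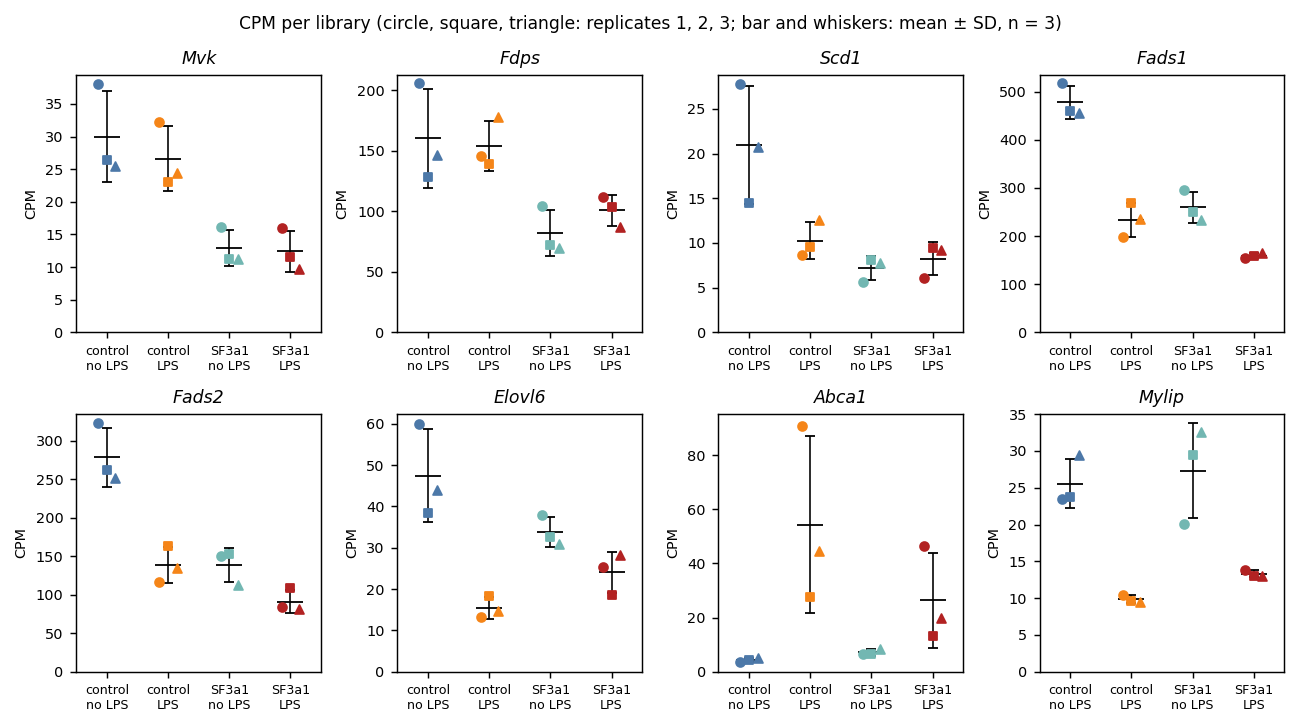
CPM of 8 genes in each library, with the mean and SD of 3 libraries per group; circles, squares and triangles are replicates 1, 2 and 3, and each axis starts at 0. Mvk is low in both SF3a1 groups, Fads1 and Fads2 step down with each treatment, and Elovl6 with LPS is higher with SF3a1 siRNA (18.6 to 28.2 CPM) than with control siRNA (13.3 to 18.3 CPM).

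Among the LXR receptors, Nr1h3 fell and Nr1h2 was not called. Nr1h3, LXR alpha, was at 15.8, 8.62 and 9.58 CPM with control siRNA and at 7.15, 5.68 and 4.61 CPM with SF3a1 siRNA, without LPS. With LPS it was at 29.6, 12.6 and 17.2 CPM with control siRNA and at 11.3, 6.29 and 7.94 CPM with SF3a1 siRNA. SF3a1 libraries were below control libraries in both conditions, with a log2 change of -0.96 without LPS (SE 0.348, edgeR adjusted p = 0.0601) and -1.22 with LPS (SE 0.345, edgeR adjusted p = 0.0173). The call without LPS was lost in 4 of 12 leave-one-out fits (log2 -0.54 and edgeR adjusted p = 0.309 without replicate 1 of the control group). The change of Nr1h3 with LPS was 0.81 with control siRNA (edgeR adjusted p = 0.105, and 0.00292 with the replicate block) and 0.55 with SF3a1 siRNA (edgeR adjusted p = 0.468, and 0.0781 with the block). Nr1h3 overlaps the gene Gm13783 on the same strand, which had 76 reads in all. Nr1h2, LXR beta, was at 70.7, 50.9 and 50.2 CPM with control siRNA and at 102, 72.7 and 70.8 CPM with SF3a1 siRNA, without LPS (log2 0.51, edgeR adjusted p = 0.194, and 0.0031 with the block), and with LPS its groups overlapped (edgeR adjusted p = 0.554, and 0.0975 with the block).

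Abca1, the transporter that loads cholesterol onto lipid-poor apolipoproteins, had the largest fold change of the members with reads in all groups, and lies at chr4:53030787-53159895 (reverse strand, ENSMUSG00000015243). It was at 3.60, 4.16 and 4.94 CPM untreated and at 90.9, 27.7 and 44.5 CPM with control siRNA and LPS (log2 fold change 3.69, SE 0.5002, edgeR adjusted p = 0.000138). Under SF3a1 siRNA it was at 6.45, 6.41 and 8.48 CPM without LPS and at 46.3, 13.1 and 19.9 CPM with LPS (log2 fold change 1.91, SE 0.470, edgeR adjusted p = 0.0264). No library without LPS reached a library with LPS. The call with SF3a1 siRNA was lost without replicate 2 of its group without LPS or replicate 1 with LPS (log2 1.84 and 1.22, edgeR adjusted p = 0.104 and 0.101). With LPS Abca1 was lower with SF3a1 siRNA than with control siRNA (log2 fold change -1.04, SE 0.447, edgeR adjusted p = 0.0979), in groups that overlapped but in the same direction in all 3 same-numbered pairs. Leaving out a library ended that call in 10 of 12 fits, up to an edgeR adjusted p of 0.457 without replicate 1 of control siRNA with LPS (log2 -0.44). Abcg1, the transporter that passes cholesterol to HDL, was at 95.9, 41.5 and 64.3 CPM untreated and at 81.5, 37.2 and 46.3 CPM with LPS, and was called in no comparison.

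Mylip (ENSMUSG00000038175, chr13:45389742-45412022, forward strand), a ubiquitin ligase and LXR target, fell with LPS while Abca1 rose. It was at 23.5, 23.7 and 29.4 CPM untreated and at 10.4, 9.62 and 9.54 CPM with control siRNA and LPS (log2 fold change -1.37, SE 0.189, edgeR adjusted p = 0.000158). With SF3a1 siRNA it was at 20.1, 29.4 and 32.5 CPM without LPS and at 13.9, 13.0 and 13.0 CPM with LPS (log2 fold change -1.04, SE 0.187, edgeR adjusted p = 0.00384). Both calls held with each library left out in turn. With LPS all 3 SF3a1 libraries were above all 3 control libraries (log2 0.43, edgeR adjusted p = 0.104, and 0.0628 with the replicate block), as was true of 18% of all tested genes.

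Ch25h (ENSMUSG00000050370, chr19:34473778-34475164, reverse strand), cholesterol 25-hydroxylase, had almost no reads without LPS. It had 0, 1 and 0 reads untreated and 44, 69 and 82 reads (1.16, 5.48 and 4.6 CPM) with control siRNA and LPS. The pooled CPM was 255 times higher with LPS, with a 95% exact counting interval of 45.2 to 10126, and the edgeR adjusted p was 0.00238. With SF3a1 siRNA it had no reads in any library without LPS, which allows up to 3 reads or 0.051 CPM over the group, and 2, 37 and 19 reads (0.0606, 2.24 and 0.914 CPM) with LPS. That is at least 16.2-fold higher with LPS (edgeR adjusted p = 0.0475), a call not made by limma-voom (adjusted p = 0.212) and lost without any 1 of the libraries without LPS or replicate 2 with LPS (edgeR adjusted p up to 0.143). With LPS the Ch25h groups of control and SF3a1 siRNA overlapped (log2 -1.85, edgeR adjusted p = 0.153, and 0.00246 lower with the replicate block), and limma-voom called Ch25h lower there. Such intervals and limits cover counting error only. Ch25h overlaps Gm26902 on the opposite strand, which had 202 reads in all. Since the sources do not say whether reads were counted by strand, the Ch25h counts are also less certain.

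The interaction asks whether SF3a1 siRNA changed the response to LPS. Its log2 value was above 0 for 28 of the 35 members, including all 16 synthesis enzymes (0.10 to 1.01), with a median of 0.33 against 0.04 over all tested genes. The members were read in the same 12 libraries, so the 28 are not separate observations, and the median over all genes was also above 0. A value above 0 means that LPS lowered the gene less, or raised it more, with SF3a1 siRNA than with control siRNA. Elovl6 was the one member called (log2 1.14, SE 0.296, edgeR adjusted p = 0.077), and the call was lost in 8 of 12 leave-one-out fits (log2 0.87 to 1.15 in those, edgeR adjusted p up to 0.194, without replicate 1 of control siRNA without LPS or replicate 3 of SF3a1 siRNA without LPS). No member was called with a value below 0 by edgeR or limma-voom; Abca1 (log2 -1.79, edgeR adjusted p = 0.223) had an unadjusted p below 0.05, and DESeq2 called 1 member there. With the replicate block Acat2, Sqle, Dhcr7, Stard4, Elovl6, Scd1 and Scd2 were called above 0 (log2 0.61 to 1.45) and Abca1 below 0 (log2 -1.80, edgeR adjusted p = 0.0452).

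**Figure D4:**
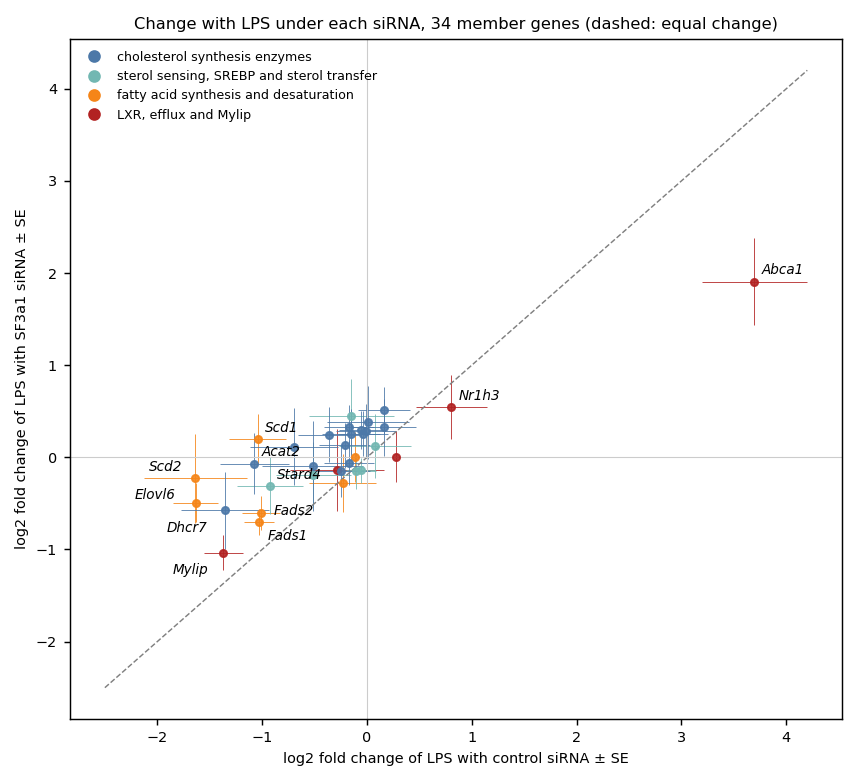
log2 fold change of LPS with control siRNA (horizontal) and with SF3a1 siRNA (vertical) for 34 genes, with SE bars; the dashed line marks equal change, the colours mark the roles, and Ch25h is left out. The genes that fell with control siRNA lie above the line, from Scd2 (-1.64 on the horizontal axis) to Stard4 (-0.92 and -0.31), and Abca1 lies below it (3.69 and 1.91).

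Replicate 1 of each group stood apart for these genes. The 35 members took 0.544% of the reads on genes in replicate 1 of the untreated group, against 0.334% and 0.360% in replicates 2 and 3. The shares were 0.342, 0.233 and 0.207% with control siRNA and LPS, 0.355, 0.26 and 0.26% with SF3a1 siRNA alone and 0.301, 0.214 and 0.235% with both. In 24 of the 35 members replicate 1 was the highest of its group in all 4 groups, among them 13 of 16 synthesis enzymes, 5 of 6 sterol sensing genes and 3 of 7 fatty acid genes, while this held for 16% of all tested genes. Over the members the median log2 ratio of replicate 1 to the mean of the others was 0.57, against -0.0031 over all tested genes. Mvd, mevalonate diphosphate decarboxylase, was an example chosen after its values were seen, at 131, 48.0 and 55.1 CPM untreated and at 101, 35.8 and 26.0 CPM with LPS. Replicate 1 also had the most reads and was the replicate sequenced in 2 runs, and the part of either in this difference was not tested. Without replicate 1 of every group, LPS with control siRNA was called for 17 members, 3 higher and 14 lower (34.6% of all genes, 14.4% higher and 20.2% lower). LPS with SF3a1 siRNA was then called for 8, 4 in each direction (15.1% of all genes, 8.4% higher and 6.68% lower). The SF3a1 effect was called for 16 members without LPS, 3 higher and 13 lower (41.3% of all genes, 18.3% higher and 23.1% lower), and for 19 with LPS, 11 higher and 8 lower (45.1% of all genes, 22% higher and 23.1% lower). The interaction was called for 6, 5 higher and 1 lower (6.82% of all genes, 3.73% higher and 3.09% lower).

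**Figure D5:**
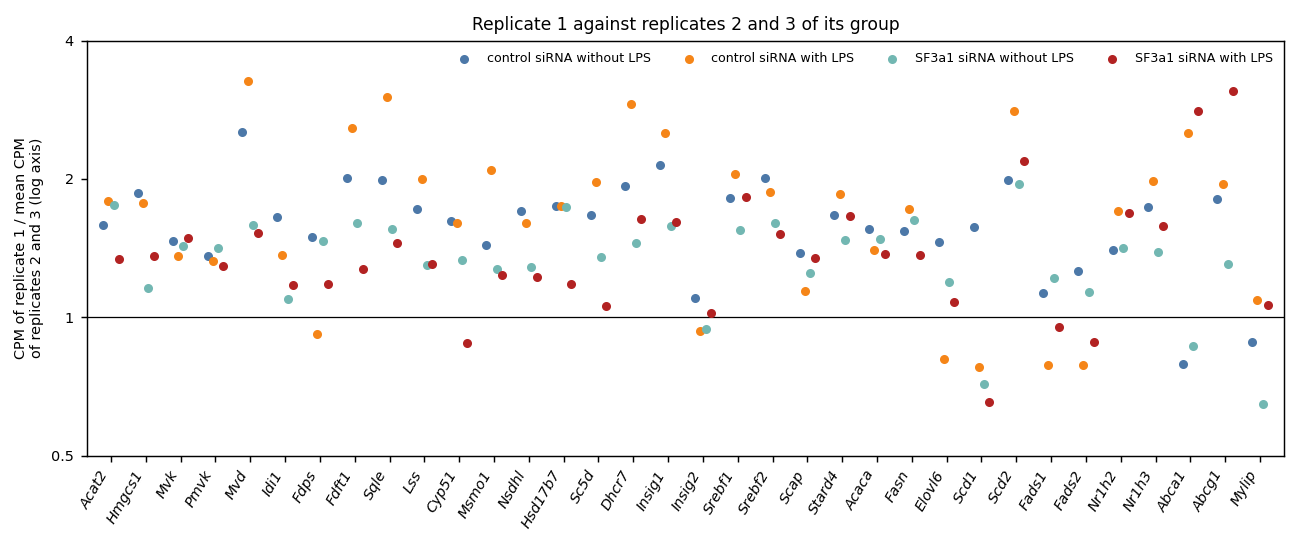
CPM of replicate 1 divided by the mean CPM of replicates 2 and 3 of its group, on a log axis, for 34 genes in the 4 groups; the line at 1 marks equal levels and Ch25h is left out. Most points lie above 1 for the synthesis enzymes and the SREBP genes, and points on both sides of 1 are seen for Insig2, Fads1, Fads2 and Mylip.

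Of 62 other genes of these pathways, 55 passed the filter. LPS with control siRNA raised 7 and lowered 15 (40% of the 55, against 32.1% of all genes), and with SF3a1 siRNA it raised 1 and lowered 8 (16.4%, against 10.7%). SF3a1 siRNA raised 8 and lowered 8 without LPS (29.1%, against 33.8%) and raised 13 and lowered 7 with LPS (36.4%, against 38.8%). The interaction was called for Gpr183 and Acsl3 (3.64%, against 3.47%). With the replicate block LPS with SF3a1 siRNA was called for 34.5% of the 55 (20.8% of all genes), SF3a1 siRNA without LPS for 49.1% (47.1%) and the interaction for 21.8% (11.7%).

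Unlike Ch25h, which rose, Gpr183, Hsd3b7 and Cyp27a1, the 3 other oxysterol genes with enough reads to test, fell with LPS under either siRNA, where 18.3% of all genes were lower with control siRNA and 4.06% with SF3a1 siRNA. Gpr183, the receptor for the oxysterol made by Ch25h and Cyp7b1, was at 166, 197 and 228 CPM untreated and at 31.6, 31.2 and 40.9 CPM with control siRNA and LPS (log2 fold change -2.51, edgeR adjusted p = 8.09e-07). With SF3a1 siRNA it was at 226, 232 and 281 CPM without LPS and at 145, 103 and 121 CPM with LPS. Every SF3a1 library with LPS was above every control library with LPS (log2 fold change 1.83, edgeR adjusted p = 3.22e-05), and the interaction was 1.51 (edgeR adjusted p = 0.0111). Hsd3b7, which acts on the same oxysterols in bile acid synthesis, was at 26.4, 23.2 and 26.0 CPM untreated and at 8.42, 6.28 and 8.81 CPM with LPS (log2 fold change -1.68, edgeR adjusted p = 2.65e-05). SF3a1 siRNA raised Hsd3b7 to 57.5, 66.2 and 80.0 CPM without LPS and to 26.1, 29.9 and 35.9 CPM with LPS (log2 fold change 1.43 and 1.96, edgeR adjusted p = 0.000166 and 2.76e-05). Cyp27a1, sterol 27-hydroxylase, fell with LPS under either siRNA (log2 fold change -1.95 and -1.23, edgeR adjusted p = 0.000527 and 0.0272) and was higher with SF3a1 siRNA in the presence of LPS (0.93, edgeR adjusted p = 0.0396). The Cyp27a1 calls with SF3a1 siRNA were each lost in 2 of 12 leave-one-out fits.

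Among the other 7 cholesterol synthesis genes, LPS with control siRNA lowered Lbr and raised Ggps1, and SF3a1 siRNA lowered Lbr and Erg28 without LPS and Lbr with LPS. LPS with SF3a1 siRNA changed none of the 7 by edgeR, where 10.7% of all genes were called. At an unadjusted p below 0.05, 1 was higher and 1 lower there, and DESeq2 and limma-voom called none. The Erg28 call and the Lbr call with LPS were each lost in 4 of 12 leave-one-out fits (edgeR adjusted p up to 0.221 without replicate 3 of control siRNA without LPS, and up to 0.140 without replicate 1 of control siRNA with LPS). Lbr, a sterol reductase of the inner nuclear membrane, was at 211, 129 and 127 CPM untreated, at 81.1, 71.8 and 56.1 CPM with LPS and at 85.9, 54.7 and 53.3 CPM with SF3a1 siRNA (log2 fold change -1.16 and -1.27, edgeR adjusted p = 0.0031 and 0.00216).

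Among LXR partners and targets, Arl4c, Rxra, Smpdl3a and Pltp fell with LPS under control siRNA, the opposite of Abca1. The Pltp call was lost in 4 of 12 leave-one-out fits (log2 -0.37, edgeR adjusted p = 0.235, without replicate 3 of the untreated group). Arl4c, a small GTPase, was at 7.75, 13.3 and 13.0 CPM untreated and at 1.11, 1.59 and 1.23 CPM with control siRNA and LPS (log2 fold change -3.14, edgeR adjusted p = 0.000357). Rxra, the partner of the LXRs, fell from 26.2, 20.1 and 18.9 CPM to 9.55, 5.72 and 5.16 CPM (log2 fold change -1.66, edgeR adjusted p = 0.000326) and with LPS was higher with SF3a1 siRNA, at 23.2, 16.8 and 17.7 CPM (log2 fold change 1.48, edgeR adjusted p = 0.000847). Smpdl3a, a phosphodiesterase, was raised by SF3a1 siRNA without and with LPS (log2 fold change 1.32 and 1.67, edgeR adjusted p = 0.00074 and 0.000153). Lpcat3, which puts polyunsaturated fatty acids into phospholipids, was at 34.6, 37.3 and 41.7 CPM untreated and at 21.0, 19.6 and 21.2 CPM with SF3a1 siRNA (log2 fold change -0.88, edgeR adjusted p = 0.000761), and was lower with SF3a1 siRNA in the presence of LPS too (-1.04, edgeR adjusted p = 0.00021). Pltp rose with SF3a1 siRNA in the presence of LPS (0.40, edgeR adjusted p = 0.0921), a call lost in 7 of 12 leave-one-out fits.

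Of the sterol uptake, storage and transport genes, the late endosomal carrier Npc2 and Stard3 rose with LPS under control siRNA (log2 fold change 1.601 and 1.28, edgeR adjusted p = 0.00032 and 0.00106) and with SF3a1 siRNA without LPS (1.05 and 1.12, edgeR adjusted p = 0.00599 and 0.00297). Npc2 was at 307, 225 and 266 CPM untreated and at 633, 468 and 552 CPM with SF3a1 siRNA. Gramd1a and Gramd1b, sterol transfer proteins of the endoplasmic reticulum, rose with LPS under control siRNA (1.08 and 0.90, edgeR adjusted p = 0.00106 and 0.0012), and with LPS Gramd1a was lower with SF3a1 siRNA (-1.18, edgeR adjusted p = 0.000705). Scarb1, the HDL receptor, fell with LPS under control siRNA (-0.95, edgeR adjusted p = 0.000792). With SF3a1 siRNA, LPS raised 0 genes of this list and lowered 2 by edgeR without the block, where 6.6% of all genes were higher and 4.06% lower. DESeq2 and limma-voom gave the same counts, where they called 13.4% and 10% of all genes. By edgeR 1 gene of the list was higher at an unadjusted p below 0.05. Soat1, which esterifies cholesterol for storage, and Rnf139, a sterol-sensing ligase, were lower with SF3a1 siRNA in the presence of LPS (-0.75 and -0.77, edgeR adjusted p = 0.0102 and 0.00263).

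Of the other fatty acid and glycerolipid genes, LPS with control siRNA lowered Elovl5, Lpin1 and Acsl3 (log2 fold change -1.23, -2.56 and -0.97, edgeR adjusted p = 0.000475, 0.000929 and 0.0105) and raised Acsl4 and Dgat2 (0.98 and 1.79, edgeR adjusted p = 0.0019 and 0.00569). Elovl5 elongates the products of the Fads desaturases. It was at 81.4, 69.4 and 76.4 CPM untreated, at 42.8, 26.6 and 27.3 CPM with LPS and at 61.5, 45.8 and 49.7 CPM with LPS and SF3a1 siRNA, where it was higher than with control siRNA (0.70, edgeR adjusted p = 0.0164). Gpam, which starts glycerolipid synthesis, was also higher there (0.84, edgeR adjusted p = 0.00557). Acss2, which makes acetyl-CoA from acetate, fell with SF3a1 siRNA from 12.5, 9.07 and 11.8 CPM to 3.17, 3.18 and 5.06 CPM (log2 fold change -1.56, edgeR adjusted p = 0.00107). The interaction of Acsl3, an acyl-CoA synthetase, was 1.48 (edgeR adjusted p = 0.05), a call lost in 7 of 12 leave-one-out fits.

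Exon usage was a further readout of the same RNA. Each gene was divided into bins at its annotated exon boundaries, and a bin's share of the gene's bin counts was compared in the 11 libraries analysed at this level, which leave out replicate 3 of control siRNA with LPS. Of the members, 34 genes with 571 bins were tested. A called bin was found in 0 of 34 for LPS with control siRNA (edgeR diffSpliceDGE; 0.462% of 10609 genes), where 8 bins of 3 members had an unadjusted p below 0.05 and limma-voom called none. For SF3a1 siRNA, Mvk had the one called bin without LPS (6.16% of all genes) and with LPS (5.03% of all genes).

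Bin 16 of the 26 bins of Mvk took 0.652, 1.84 and 2.04% of the gene's bin counts untreated and 2.52, 5.93 and 9.09% with SF3a1 siRNA. With LPS it took 0.284 and 2.83% with control siRNA and 3.54, 7.27 and 7.78% with SF3a1 siRNA. The SF3a1 libraries were above the control libraries in both conditions, and the log2 change relative to the gene was 1.39 without LPS (edgeR adjusted p = 0.0513) and 1.66 with LPS (edgeR adjusted p = 0.0772). These shares rest on 6 to 32 reads per library, and the gene's total was lower in the SF3a1 libraries. The call was lost in 4 of 11 leave-one-out fits without LPS and in 6 of 11 with LPS. The position of the bin is not given because the bins rebuilt from the annotation were 25. With the replicate block 1, 2 and 2 members had a called bin in the 3 comparisons (1.22, 11.5 and 10.4% of all genes, for LPS and for SF3a1 siRNA without and with LPS): Insig2 for LPS, Nr1h2 and Mvk without LPS, and Msmo1 and Mvk with LPS.

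Promoter sequence is shown for the genes with the smallest adjusted p, since the data turn on their RNA levels, and for Mvk, which was chosen after its values were seen. RefSeq's promoter table (GRCm38.p6, 250 bases before to 50 bases after each start) held 27 of the 35 members in 36 promoters, and Fads1 and Scd1 were not among them. Motifs were searched on both strands, and their matches are in capitals: the CCAAT box, which NF-Y binds, by its letters CCAAT on either strand, and the E-box by the letters CACGTG. The 250 bases before the start of Mvk (chr5:114444019-114444268, forward strand), Mylip (chr13:45389492-45389741, forward strand) and Abca1 (chr4:53159896-53160145, reverse strand) read 5′ to 3′ as follows.
Mvk: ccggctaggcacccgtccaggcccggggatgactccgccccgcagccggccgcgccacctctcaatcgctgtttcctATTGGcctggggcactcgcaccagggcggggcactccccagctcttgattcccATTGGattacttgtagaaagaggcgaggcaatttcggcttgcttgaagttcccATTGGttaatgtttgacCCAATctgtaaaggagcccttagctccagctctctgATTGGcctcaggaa
Mylip: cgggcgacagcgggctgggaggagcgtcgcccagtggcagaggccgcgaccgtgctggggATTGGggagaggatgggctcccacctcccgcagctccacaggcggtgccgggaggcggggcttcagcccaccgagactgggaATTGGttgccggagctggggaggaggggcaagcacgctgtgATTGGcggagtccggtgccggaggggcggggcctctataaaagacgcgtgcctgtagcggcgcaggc
Abca1: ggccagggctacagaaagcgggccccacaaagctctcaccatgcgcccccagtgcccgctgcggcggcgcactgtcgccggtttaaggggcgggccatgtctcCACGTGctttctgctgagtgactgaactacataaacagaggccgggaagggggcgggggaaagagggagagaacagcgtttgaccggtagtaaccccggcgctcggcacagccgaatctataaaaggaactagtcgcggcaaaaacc
Mvk holds 5 CCAAT matches and Mylip 3, and Abca1 holds 1 E-box. Elovl6 and Fads2 are not shown because their RefSeq start differs from the start of the gene positions given above.

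Over the members, 52.8% of the 36 promoters held CCAAT, against 37.4% of 32851 promoters in the table, and 12 of the 16 promoters of synthesis enzymes (75%) did. The E-box CACGTG was in 19.4% of member promoters and 7.15% of all. The sterol regulatory element TCACNCCAC, to which SREBPs bind, was in 1 of 36 member promoters (2.78%, against 1.24% of all), that of Hmgcs1 at chr13:119690204-119690232 on the forward strand. It is shown with 10 bases on either side and the match in capitals, although the RefSeq start of Hmgcs1 also differs from the start of its gene.
Hmgcs1: cgtcaccgtcTCACCCCACttcccaggtc
The interferon-stimulated response element GAAANNGAA was in none of the member promoters and in 8.56% of all. These shares describe letters in a window, not bound sites.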

How the data were processed

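RAW264.7 cells were studied in 12 libraries, 3 per group, grouped by the sample labels. The authors aligned Ion Proton reads to mm10 with GSNAP and deposited whole-number read counts per gene, made with HTSeq from uniquely mapping reads, and read counts per exon bin for the 11 libraries analysed at that level. Whether counting used strand is not given in the sources used here.

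The gene counts were scaled by TMM and tested with edgeR 4.0.16 (R 4.3.3, limma 3.58.1) by the quasi-likelihood test on all 12 libraries with 1 mean per group, after filterByExpr left 14983 of 38215 genes. Benjamini-Hochberg adjustment ran over all genes tested, at a false discovery rate of 0.1. Exon bins (153624 bins of 10609 genes) were tested with diffSpliceDGE of edgeR. CPM used TMM-scaled library totals, and levels per kb used the union of annotated exons. Reads that fell on no gene were 17.8 to 27.2% in the file's own summary lines and stayed out of library totals. Alternatives were DESeq2 1.42.0, limma-voom, DESeq2 size factors, no filter, the groups compared alone, the replicate number as a block, and each library left out.

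The replicate numbers come from the labels. Deviations from the group means correlated above 0.1 in 18 of 18 pairs of libraries with the same number (0.143 to 0.600, median 0.356) and had a median of -0.308 in 36 pairs with different numbers, so the numbers were taken to pair the samples.

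Members were listed by symbol, and members and gene lists were chosen with earlier results of these data known. Every called member is named. Of the other listed genes, up to 4 per list and direction are named, those with the smallest adjusted p, and some of the listed genes are not reported here. The scripts were tested on simulated counts. No permutation test was used, since with 3 libraries in each group the smallest exact p is 0.1.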

Additional observations from a re-analysis of the deposited data

Results flagged for a closer look

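The effect of LPS on Elovl6, a fatty acid elongase, differed between SF3a1 siRNA and control siRNA. LPS changed it by -1.63 on the log2 scale with control siRNA and by -0.49 with SF3a1 siRNA, a difference of 1.14 (SE 0.296, edgeR adjusted p = 0.077). The adjusted p was 0.0256 with the replicate block, and the difference was not called with DESeq2 size factors or without replicate 1 of every group (edgeR adjusted p = 0.127). No outlier test was made, since the groups hold 3 libraries each.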

How the results depend on the processing

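Of 663 values of the 35 called member results under alternatives, 593 kept their direction and their call, 70 kept the direction and lost the call (59 of them with 1 library left out), and 0 reversed. Other than by leaving out a library, calls were lost for Pmvk and Abca1 (SF3a1 siRNA with LPS) and Elovl6 (interaction) with DESeq2 size factors (edgeR adjusted p = 0.123, 0.107 and 0.106), for Pmvk with DESeq2 (adjusted p = 0.109), for Pmvk, Abca1 and Fads2 (LPS with SF3a1 siRNA) with only the groups compared (edgeR adjusted p = 0.142, 0.193 and 0.109), for Idi1, Elovl6 and Fads2 without replicate 1 of every group (edgeR adjusted p = 0.151, 0.127 and 0.139), and for Ch25h with limma-voom. With the replicate block the members called were 10 for LPS with SF3a1 siRNA, 19 and 16 for SF3a1 siRNA without and with LPS, and 8 for the interaction, and members with a called exon bin were 1 for LPS and 2 and 2 for SF3a1 siRNA without and with LPS. The block ended no call of a member. Without replicate 1 of every group 17 and 8 members were called for LPS with control and SF3a1 siRNA, 16 and 19 for SF3a1 siRNA without and with LPS, and 6 for the interaction. Fitting only the groups compared gave 3 for LPS with SF3a1 siRNA and 16 for SF3a1 siRNA without LPS (9.08% and 40.7% of all genes). Without the filter 16 were called for SF3a1 siRNA without LPS and 4 for the interaction (16.7% and 3.25% of 28638 genes), for which DESeq2 called 3 (6.45% of all genes) and edgeR with DESeq2 size factors 0 (3.19%). Leaving out 1 library gave 8 to 16 and 2 to 5 members for LPS with control and SF3a1 siRNA, 7 to 14 and 5 to 11 for SF3a1 siRNA without and with LPS, and 0 to 2 for the interaction. The shares of all genes moved too, from 26.2 to 32.9% and from 6.88 to 13.1% for LPS with control and SF3a1 siRNA. They ran from 25.4 to 36.9% and from 31.1 to 39.3% for SF3a1 siRNA without and with LPS, and from 1.79 to 4.66% for the interaction. For exon bins, leaving out 1 library gave 0 to 0 members for LPS and 0 to 1 for SF3a1 siRNA without and with LPS. The cause of these differences was not tested. Depth limits Ch25h and the Mvk bin, which rest on few reads.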
